A study of Mus musculus with 8 samples.

Results

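The mouse genes *Cux2*, *Acot3*, *Cyp17a1*, *Prlr* and *Sult1e1*, whose liver expression is typical of continuous growth hormone exposure, were examined in livers of male mice fed a high-fat diet (HFD). The genes were chosen by name, and all 5 of the 5 names matched a row of the deposited count table, which holds 18095 genes. Liver RNA was sequenced from 4 HFD WT and 4 HFD Inpp4b-/- males aged 12 weeks. The study asked which liver pathways differ when mice on this diet lack INPP4B, a phosphatase of phosphoinositides that restrains AKT signalling. The study describes a constitutive deletion, and both groups received HFD, as did their dams before mating and through pregnancy and lactation. The sample labels give the strain as C57BL/6, while the study's methods describe FVB mice, and no female and no low-fat diet liver was sequenced. The study counts each library as 1 mouse.

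In rodents, the pituitary of males releases growth hormone in separated pulses, whereas females have a more continuous plasma level. Each pulse activates STAT5B in hepatocytes, which maintains genes of the male pattern together with the repressor BCL6. Continuous exposure favours the female pattern, of which CUX2, a homeodomain factor that represses male-biased genes, is the best-known regulator. Among the other 4 genes, *Prlr* encodes the prolactin receptor, *Acot3* a peroxisomal acyl-CoA thioesterase, *Cyp17a1* a steroid 17-alpha-hydroxylase and 17,20-lyase, and *Sult1e1* an estrogen sulfotransferase.

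The 5 genes lie apart from each other, except that *Cux2* and *Sult1e1* share a chromosome. On GRCm38, *Cux2* (ENSMUSG00000042589) spans chr5:121856366-122050102 on the minus strand and *Sult1e1* (ENSMUSG00000029272) spans chr5:87575969-87591594 on the minus strand. *Acot3* (ENSMUSG00000021228) spans chr12:84052144-84060402 on the plus strand. *Cyp17a1* (ENSMUSG00000003555) spans chr19:46667165-46673172 on the minus strand, and *Prlr* (ENSMUSG00000005268) spans chr15:10177238-10349180 on the plus strand. All are protein-coding.

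RefSeq windows of GRCm38.p6, each of 300 bases that end just inside an annotated transcript start, were found for 4 of the 5 genes, 8 windows in all. They were searched on both strands for TTCNNNGAA, the core of a STAT5 site, and for ATCGAT and ATTGAT, core letters bound by ONECUT1 and CUX2; the 3 motifs do not share a window among these genes. Among all 32851 windows of the table, 8.30% held TTCNNNGAA, 0.925% held ATCGAT and 7.54% held ATTGAT. One window of *Cux2* held ATCGAT and one of *Prlr* held TTCNNNGAA, and the other 6 windows held none of the 3 motifs. These matches are letters only, with no binding measured. The 2 windows with a match are shown first, with the match in capitals, followed by the *Acot3* window, because *Acot3* was the gene called once a single library was left out. They lie at chr5:122047776-122048075 on the minus strand, chr15:10223656-10223955 on the plus strand and chr12:84051894-84052193 on the plus strand, and each is written 5′ to 3′ along the gene.
Cux2: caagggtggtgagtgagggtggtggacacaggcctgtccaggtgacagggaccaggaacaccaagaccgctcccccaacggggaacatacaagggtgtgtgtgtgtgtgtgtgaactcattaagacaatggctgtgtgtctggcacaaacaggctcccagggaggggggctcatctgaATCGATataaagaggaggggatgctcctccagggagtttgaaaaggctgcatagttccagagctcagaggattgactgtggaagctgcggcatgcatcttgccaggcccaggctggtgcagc
Prlr: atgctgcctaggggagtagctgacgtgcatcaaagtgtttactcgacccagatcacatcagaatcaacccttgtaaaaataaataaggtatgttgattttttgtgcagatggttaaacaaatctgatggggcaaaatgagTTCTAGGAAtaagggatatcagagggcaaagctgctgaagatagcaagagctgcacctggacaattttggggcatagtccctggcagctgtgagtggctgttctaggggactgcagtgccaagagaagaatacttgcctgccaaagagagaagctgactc
Acot3: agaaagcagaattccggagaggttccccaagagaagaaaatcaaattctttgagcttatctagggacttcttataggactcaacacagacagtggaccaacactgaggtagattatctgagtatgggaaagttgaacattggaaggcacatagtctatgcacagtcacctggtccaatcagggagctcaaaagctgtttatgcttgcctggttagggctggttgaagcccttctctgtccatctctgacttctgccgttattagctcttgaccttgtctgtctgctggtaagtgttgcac

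Libraries held 25893430 to 31427831 counts under the label HFD WT and 32738435 to 36662531 under the label HFD Inpp4b-/-. Pearson correlations of log2 levels between libraries were 0.955 to 0.981. The targeted gene, *Inpp4b*, had 6, 20, 5 and 8 counts in HFD WT replicates 1 to 4, and the libraries labelled HFD Inpp4b-/- had 33, 10, 9 and 14. This is 0.332 ± 0.207 CPM in HFD WT and 0.465 ± 0.305 CPM in HFD Inpp4b-/-, and the values overlapped. A two-sided exact permutation test on log2(CPM + 0.1) gave p = 0.486. Its counts thus do not show the loss that the labels name, although gene-level counts hide which exons were read. Each direction below therefore rests on the labels. Over the 8 libraries, 30 male-biased liver genes summed to 22357 to 54657 CPM, and 26 other female-biased genes to 147 to 424 CPM. These sums depend on which genes were listed and how abundant each is. With no female liver for comparison, they cannot show a male or female pattern. All 8 hepatocyte markers passed the expression filter. Of the 8 Kupffer cell and leukocyte markers 7 were in the table, and they summed to 43.6 to 122 CPM in HFD WT and 83.0 to 158 CPM in HFD Inpp4b-/-, with 0 of 7 called by edgeR or DESeq2 and 0 at an unadjusted p under 0.05. The adipocyte genes *Adipoq*, *Plin1* and *Lep* and the adrenal genes *Cyp11a1*, *Cyp11b1*, *Mc2r* and *Nr5a1* had no row in the table. Of the 6 adrenal and gonad genes listed, *Cyp17a1* itself and *Star* had one. *Star* was at 3.11 ± 0.702 CPM in HFD WT and 2.46 ± 0.562 CPM in HFD Inpp4b-/-. *Cyp21a1*, from the steroid synthesis list, was at 2.49 to 38.1 CPM in HFD WT and 2.16 to 9.36 CPM in HFD Inpp4b-/-. Neither was called (edgeR, adjusted p = 0.598 and 0.460). In such tissue RNA, a change in the number of cells of a type and a change in RNA per cell cannot be told apart.

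None of the 4 genes with enough counts for the main test was differentially expressed between the 2 labels, and *Sult1e1* fell below its filter. Of the table's genes, 14866 had enough counts for edgeR's filter and were fitted by its quasi-likelihood method. A gene was called when its fold change exceeded 1.3 and its p, adjusted by the Benjamini-Hochberg procedure over all fitted genes, was below 0.1. The test called 174 genes, or 1.17% of those tested, and 0 of the 4 members that passed the filter, with 0 of the 4 at an unadjusted p under 0.05. DESeq2 called 4.04% of 17016 genes under the same thresholds and 1 of the 4 members to which it gave an adjusted p, *Sult1e1*. The values of both labels overlapped for all 5 genes, whereas 8.72% of all tested genes had no overlap in either direction. The plot of levels by library shows which mice carried the high values.

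**Figure D1:**
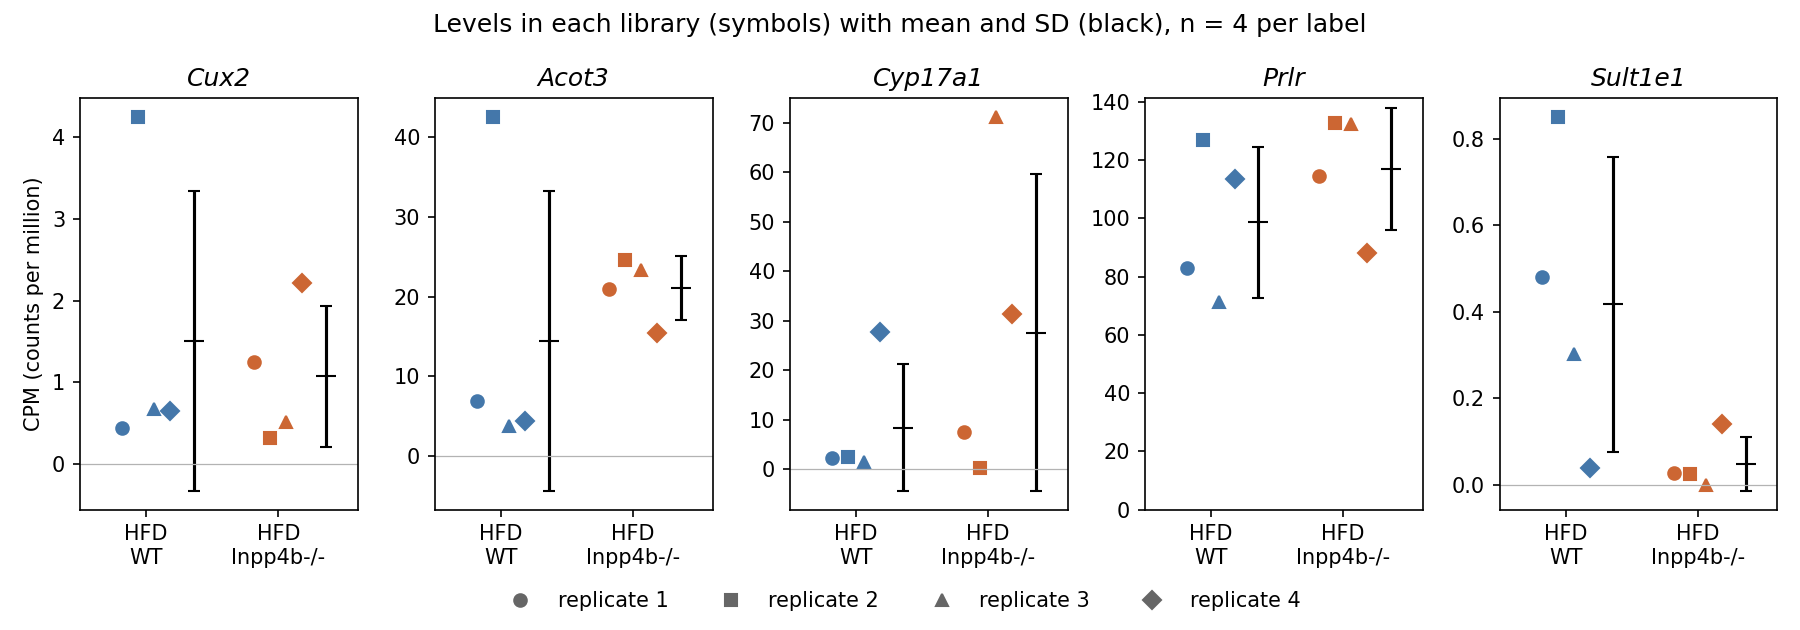
Level of each of the 5 genes in CPM (vertical axes, linear, each panel with its own scale) in 4 HFD WT (blue) and 4 HFD Inpp4b-/- (orange) libraries, with symbols for replicates 1 to 4, and the mean and SD in black. HFD WT replicate 2 was the highest HFD WT library for *Cux2* (4.25 CPM), *Acot3* (42.5 CPM), *Prlr* (127 CPM) and *Sult1e1* (0.850 CPM), and HFD WT replicate 4 for *Cyp17a1* (27.7 CPM). Some SD bars reach below 0 because 1 library holds most of a group's sum.

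The genes differed widely in abundance. As RPKM (CPM divided by the length of the merged exons of all isoforms in kilobases), *Prlr* was at 6.43 ± 1.69 in HFD WT and 7.62 ± 1.37 in HFD Inpp4b-/- (mean ± SD, n = 4 each), and *Acot3* at 4.19 ± 5.47 and 6.12 ± 1.18. *Cyp17a1* was at 3.05 ± 4.63 RPKM in HFD WT and 9.96 ± 11.5 RPKM in HFD Inpp4b-/-. *Sult1e1*, at 0.336 ± 0.274 and 0.0391 ± 0.0503 RPKM, and *Cux2*, at 0.149 ± 0.182 and 0.107 ± 0.0855 RPKM, were more than 10 times lower than *Prlr* in HFD WT. The spread within each label leaves the order of *Prlr*, *Acot3* and *Cyp17a1* unresolved, and likewise that of *Sult1e1* and *Cux2*.

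*Cux2* was low in most livers and high in a single HFD WT mouse. Its counts were 12, 135, 20 and 17 in HFD WT replicates 1 to 4, which is 0.443, 4.25, 0.674 and 0.653 CPM. In HFD Inpp4b-/- replicates 1 to 4, counts were 45, 12, 16 and 79, or 1.25, 0.315, 0.515 and 2.22 CPM. The highest and the lowest of the 8 values thus came from HFD WT replicate 2 and HFD Inpp4b-/- replicate 2. The log2 fold change, HFD Inpp4b-/- minus HFD WT, was -0.49 with a SE of 0.81 and a 95% interval of -2.30 to 1.32 (edgeR, adjusted p = 0.828). Without HFD WT replicate 2 the sign turned, to 0.85, with an adjusted p of 0.571. The spread of *Cux2* between mice of one label was large for a liver gene, with a biological coefficient of variation (the SD between mice relative to the mean, beyond counting error) of 0.766, and 98.7% of tested genes varied less.

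*Prlr*, the prolactin receptor, was the steadiest of the 5 genes. It reached 83.0, 127, 71.1 and 113 CPM in HFD WT replicates 1 to 4 and 114, 133, 132 and 88.2 CPM in HFD Inpp4b-/- replicates 1 to 4. HFD WT replicates 1 and 3 were the lowest of the 8 libraries, while the values of the other 6 interleaved. The difference of 0.25 on the log2 scale (SE 0.20, 95% interval -0.19 to 0.68), or 1.19-fold, was within the spread between mice (edgeR, adjusted p = 0.616). Its coefficient of variation was 0.210, and 52.9% of tested genes varied less. Of the exon bases of *Prlr*, 1.32% overlap *Gm21973* on the same strand.

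*Acot3* was high in 1 HFD WT mouse and intermediate in all HFD Inpp4b-/- mice. Its level was 6.93, 42.5, 3.77 and 4.38 CPM in HFD WT replicates 1 to 4, and 20.9, 24.5, 23.3 and 15.4 CPM in HFD Inpp4b-/- replicates 1 to 4. All 4 HFD Inpp4b-/- libraries thus lay above 3 of the HFD WT libraries and below HFD WT replicate 2. With all 8 libraries, the log2 fold change was 0.54 (SE 0.68, 95% interval -0.99 to 2.07, edgeR adjusted p = 0.769). Without HFD WT replicate 2 it was 2.06 (SE 0.25, 95% interval 1.50 to 2.61), and *Acot3* passed the thresholds (edgeR, adjusted p = 0.0133), the only 1 of the 4 tested members to do so. That fit called 2.26% of 15265 genes. Leaving out this library was planned for every library alike, and nothing in the labels sets it apart. DESeq2 gave no adjusted p for *Acot3*, although its mean of 591 counts per library was above the 7.1 of *Sult1e1*, which received one.

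**Figure D2:**
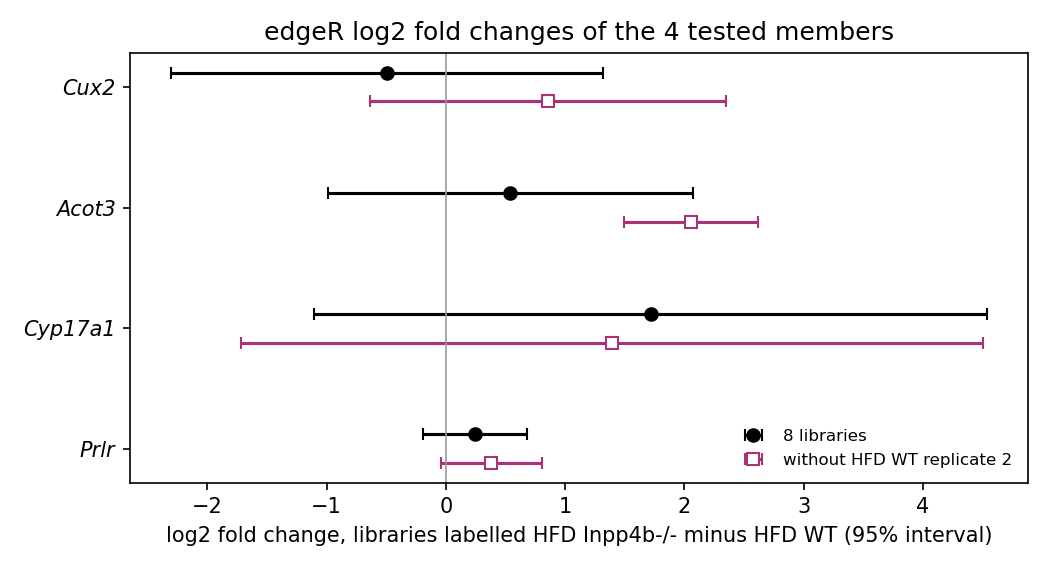
edgeR log2 fold change (horizontal axis, HFD Inpp4b-/- minus HFD WT) with its 95% interval for the 4 tested genes, from all 8 libraries (black circles) and without HFD WT replicate 2 (open squares). All intervals include 0 except that of *Acot3* without this library (1.50 to 2.61), and the *Cux2* estimate moved from -0.49 to 0.85.

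*Acot3* belongs to a cluster of acyl-CoA thioesterase genes on chromosome 12, which release free fatty acids from CoA esters in the cytosol (*Acot1*), mitochondria (*Acot2*) or peroxisomes. The table holds 4 of the 5 other genes of the cluster listed, and 0 of these 4 were called, 1 at an unadjusted p under 0.05 and 1 called by DESeq2 (both *Acot2*), with a median log2 fold change of 0.23 beside 0.0027 over all tested genes. *Acot4*, a peroxisomal thioesterase of dicarboxylic acyl-CoAs, followed *Acot3* from mouse to mouse. It was at 55.9, 114, 50.9 and 41.0 CPM in HFD WT replicates 1 to 4 and at 88.2, 88.5, 83.0 and 73.3 CPM in HFD Inpp4b-/- replicates 1 to 4, again with HFD WT replicate 2 highest of all. Its log2 fold change was 0.35 (edgeR, adjusted p = 0.612), and it passed the thresholds without HFD WT replicate 2. *Acot2* had no overlap between labels, with 4.49 to 6.27 CPM in HFD WT and 7.21 to 9.52 CPM in HFD Inpp4b-/-, but its log2 fold change of 0.54 did not pass (edgeR, adjusted p = 0.185). *Acot1* had a log2 fold change of -0.15 and *Acot6* of 0.11 (edgeR, adjusted p = 0.722 and 0.919). The sequences of the cluster are alike in part, since 12.8% of the 150-base stretches of *Acot3* transcripts, the length of 1 read, also occur in transcripts of other genes, among them *Acot1*, *Acot5* and *Acot6*. At this length *Acot4* shared none with *Acot3*. The exons of *Acot3* overlap *Gm49366* over 11.5% and the antisense gene *4732463B04Rik* over 9.08% of their bases, and the strand setting of the counting is not given in the sources used here, so part of the *Acot3* count is uncertain.

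*Cyp17a1* varied widely within both labels. Its counts in HFD WT replicates 1 to 4 were 60, 78, 43 and 720, or 2.21, 2.46, 1.45 and 27.7 CPM. In HFD Inpp4b-/- replicates 1 to 4, they were 272, 12, 2212 and 1115, or 7.55, 0.315, 71.2 and 31.3 CPM. The lowest and the highest of the 8 values were both in HFD Inpp4b-/- libraries, replicates 2 and 3. The log2 fold change of 1.72 was large but its 95% interval ran from -1.10 to 4.53 (SE 1.26, edgeR adjusted p = 0.586). Leaving out HFD Inpp4b-/- replicate 3 brought it to 0.64, and leaving out HFD WT replicate 4 to 3.75, still not past the threshold (adjusted p = 0.261). The coefficient of variation was 1.13, and 99.9% of tested genes varied less between mice of one label. No annotated gene overlaps *Cyp17a1*, and none of its 150-base stretches occurs in another gene's transcripts.

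The genes whose pattern was most like that of *Cyp17a1* lay on its own chromosome. The search covered the 10730 tested genes that averaged 50 counts or more per library and were not predicted genes or pseudogenes. The 3 highest Pearson correlations of log2 CPM over the 8 libraries were those of *Sfxn2* (0.97), which encodes a mitochondrial sideroflexin, *As3mt* (0.95), the arsenite methyltransferase, and *Xpnpep1* (0.94), an aminopeptidase. All 3 lie on chromosome 19, separated from *Cyp17a1* by 69.1 kb, 34.3 kb and 6.26 Mb. *As3mt* was at 12.4, 14.6, 14.0 and 42.5 CPM in HFD WT replicates 1 to 4 and at 15.2, 4.44, 42.4 and 27.5 CPM in HFD Inpp4b-/- replicates 1 to 4. *Sfxn2* was at 19.0, 23.7, 18.9 and 37.8 CPM in the former and 39.1, 14.5, 68.8 and 53.8 CPM in the latter. Both were thus highest among HFD WT in replicate 4 and lowest of all libraries in HFD Inpp4b-/- replicate 2, as *Cyp17a1* was. Neither differed between labels beyond the spread, with log2 fold changes of 0.10 for *As3mt* and 0.83 for *Sfxn2* (edgeR, adjusted p = 0.960 and 0.403). After the mean of each label was removed, the correlations with *Cyp17a1* were 0.99 for both.

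**Figure D3:**
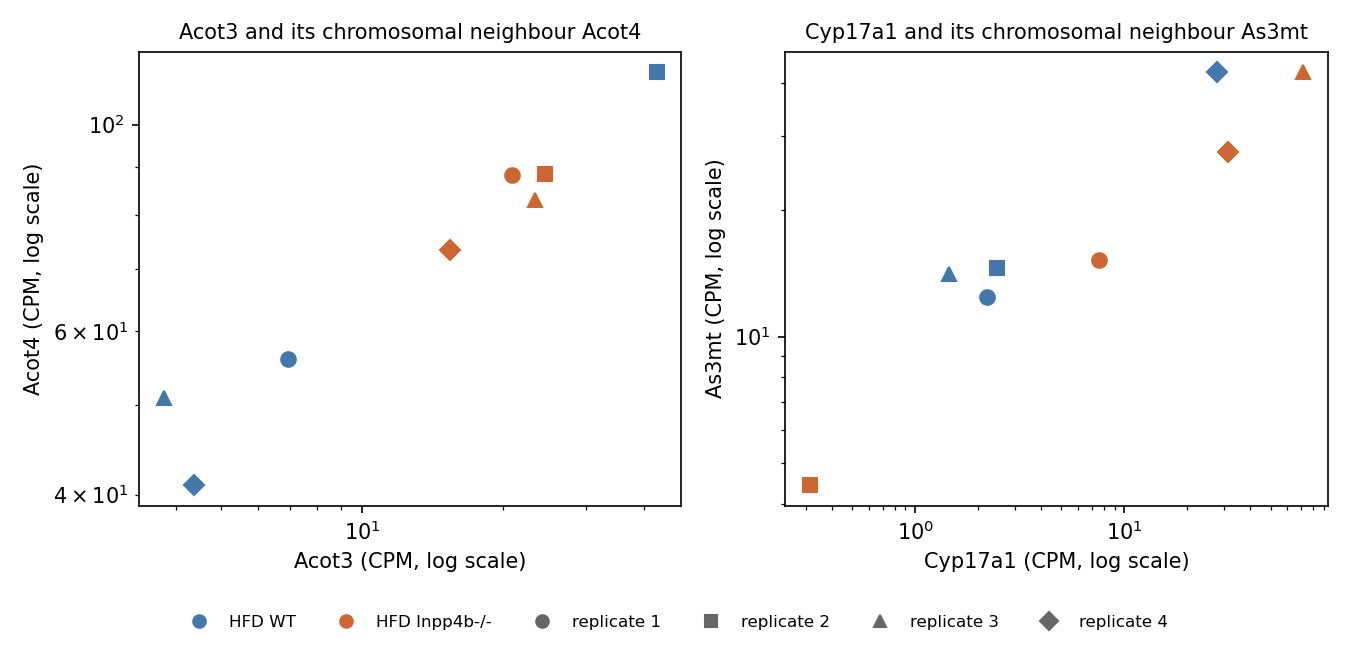
Levels in CPM (both axes logarithmic) of *Acot3* against *Acot4* and of *Cyp17a1* against *As3mt*, 1 symbol for each of the 8 libraries, blue for HFD WT and orange for HFD Inpp4b-/-. HFD WT replicate 2 (blue square) stands at the upper end of the *Acot3* panel at 42.5 and 114 CPM, and HFD Inpp4b-/- replicate 2 (orange square) at the lower end of the *Cyp17a1* panel at 0.315 and 4.44 CPM.

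Within 1 Mb of *Cyp17a1*, 4 of 35 genes had a correlation over 0.8, *Sfxn2*, *As3mt*, *Arl3* and *Cuedc2*, against 0.597% of all 10729 genes compared. Within 10 Mb there were 9 of 130. The counts within 1 Mb took every tested gene. The count within 10 Mb and the shares of all genes took only genes of the search, so the sets are unlike. The same count within 1 Mb was 2 of 35 for *Acot3*, 0 of 39 for *Cux2* and 0 of 9 for *Prlr*, against 1.70%, 0.606% and 1.16% of all genes. The distances and the cut of 0.8 were chosen after the 3 nearest patterns had been seen, and neighbouring genes in 8 shared libraries are not independent, so these counts are a description with no test.

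**Figure D4:**
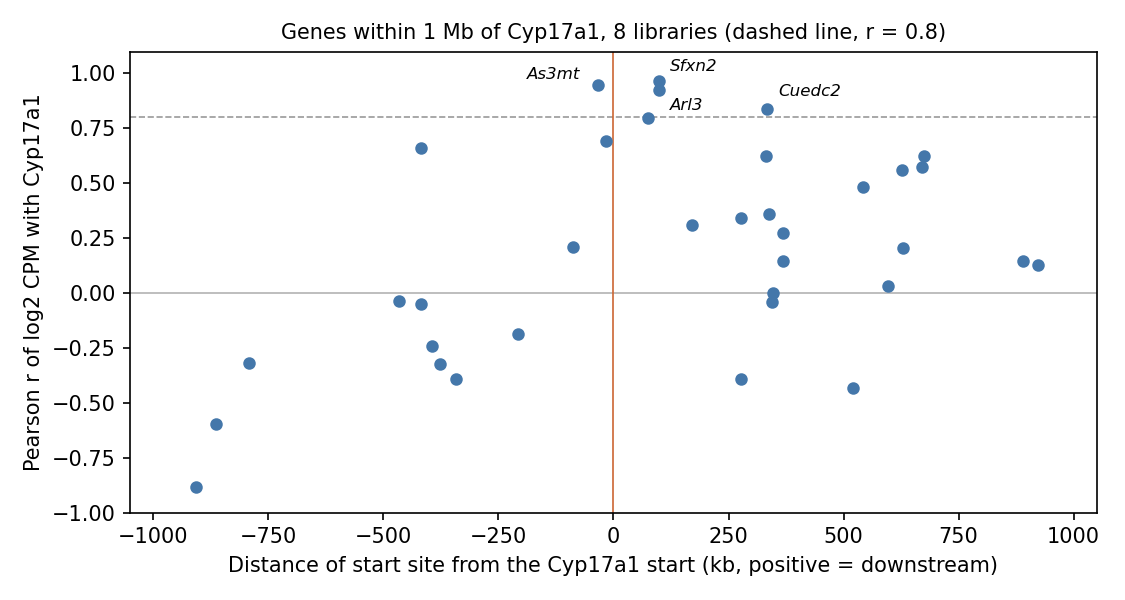
Pearson correlation with *Cyp17a1* of log2 CPM over the 8 libraries (vertical axis) against the distance of each gene's start from the *Cyp17a1* start in kb (horizontal axis), 1 point for each of the 35 genes within 1 Mb. The 4 genes above the dashed line at 0.8 are *As3mt*, *Sfxn2*, *Arl3* and *Cuedc2*, the farthest of them 334 kb from the start, and the remaining genes spread from negative to positive values.

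The nearest patterns of the other 3 tested genes lay on other chromosomes than the gene itself, except *Acot4*. For *Acot3* they were *Aldh1b1*, a mitochondrial aldehyde dehydrogenase (0.98), *Limd2* (0.98) and *Acot4* (0.97). *Aldh1b1* was at 116 CPM in HFD WT replicate 2 against 24.8 to 39.9 CPM in the other HFD WT libraries and 69.9 to 115 CPM in HFD Inpp4b-/-. For *Prlr* they were *Nt5e*, the ecto-5'-nucleotidase CD73 (0.96), *Sema6d* (0.96) and the centriole gene *Poc5* (0.95). For *Cux2* they were the formin gene *Fmnl3* (0.97), *Foxf1*, a transcription factor of mesenchymal cells (0.95), and the actin-binding *Ablim1* (0.93). None of these 9 genes was called. With so many genes searched over 8 libraries, correlations of this height are a description only.

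*Sult1e1*, which inactivates estrogens by sulfation, was close to the limit of detection. It had 13, 27, 9 and 1 counts in HFD WT replicates 1 to 4 (0.479, 0.850, 0.303 and 0.0384 CPM) and 1, 1, 0 and 5 counts in HFD Inpp4b-/- replicates 1 to 4 (0.0277, 0.0263, 0 and 0.140 CPM). With 3 counts taken as the limit that a count of 0 allows, 3 of the HFD Inpp4b-/- libraries and HFD WT replicate 4 were at or under it. The gene failed the edgeR filter with all 8 libraries. The log2 ratio of mean CPM was -3.10, and the two-sided exact permutation test on log2(CPM + 0.1) gave p = 0.0571 over 70 arrangements, of which the smallest possible p is 0.0286 (n = 4 per label). DESeq2 gave a log2 fold change of -3.10 and an adjusted p of 0.0962, which passed, whereas edgeR with no filter gave an adjusted p of 0.241. All 4 libraries labelled HFD Inpp4b-/- held fewer *Sult1e1* counts than HFD WT replicates 1 to 3, while the single count of HFD WT replicate 4 lay within their range.

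Correlations were computed for the 6 pairs of the 4 tested genes, without *Sult1e1*. Among them, the highest correlation of log2 CPM across the 8 libraries was between *Acot3* and *Prlr*, with Pearson's r = 0.72 (two-sided exact permutation p = 0.0425, adjusted over the 6 pairs 0.255) and Spearman's rho = 0.86 (exact permutation p = 0.0107, adjusted 0.0643). Without HFD WT replicates 3 and 4, the 2 libraries farthest from the median of *Acot3*, r was 0.84, and after removing the mean of each label it was 0.65. *Cux2* and *Acot3* had r = 0.44 (exact permutation p = 0.284, adjusted 0.851) and rho = 0.095 (exact permutation p = 0.840, adjusted 0.977), and r was -0.097 without HFD Inpp4b-/- replicate 4 and HFD WT replicate 2, so that relation rests on these 2 libraries. The remaining 4 pairs had r between -0.027 and 0.20.

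What several members did share was HFD WT replicate 2. It was the highest HFD WT library for 4 of the 5 members and for 20 of 26 other female-biased genes (76.9%), against 26.2% of all tested genes. It was the lowest HFD WT library for 17 of 30 male-biased genes (56.7%), against 25.4% of all tested genes. The summed level of the 26 female-biased genes was 395 CPM in this library, against 147 to 166 CPM in the other HFD WT libraries and 273 to 424 CPM in HFD Inpp4b-/-. Different genes made up part of these sums. *Cyp2b10* was at 86.8 CPM in this library and 0 to 2.25 CPM in HFD Inpp4b-/-. *Cyp2b9* was at 10.3 CPM in this library and 29.2 to 173 CPM in HFD Inpp4b-/-. *Acot4* was high in both, at 114 CPM and 73.3 to 88.5 CPM. Its summed level of male-biased genes, 39346 CPM, lay below the 44140 to 54657 CPM of the other HFD WT libraries and above the 22357 to 32282 CPM of HFD Inpp4b-/-. This library had the highest total of the HFD WT libraries, 31427831 counts, and a scaling factor of 1.01. Its 7 tested Kupffer cell and leukocyte markers summed to 120 CPM, within the 43.6 to 122 CPM of HFD WT, and its hepatocyte markers to 85753 CPM, within 79979 to 89027 CPM. Its 5 cholangiocyte markers, at 24.5 CPM, lay within the 23.7 to 31.6 CPM of HFD WT. Its 4 endothelial markers, at 120 CPM, were the highest of HFD WT, with 80.2 to 124 CPM in HFD Inpp4b-/-. Its 5 stellate cell markers, at 186 CPM, were the highest of the 8 libraries. They were at 136 to 166 CPM in the other HFD WT libraries and 144 to 176 CPM in HFD Inpp4b-/-. The part of depth and of cell makeup in its levels was not tested.

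For growth hormone receptor and STAT5 signalling, 15 genes were listed, among them targets of STAT5 as well as its upstream genes. Their median log2 fold change was 0.22. By edgeR, 0 of them were called and 7 had an unadjusted p under 0.05, as 2072 of all 14866 genes did, and DESeq2 called 1, *Igfbp3*, which encodes an IGF-binding protein. The 7, named after their values were seen, were *Jak2*, *Stat5a*, *Cish* and *Igfbp3*, with log2 fold changes of 0.25, 0.35, 1.77 and 0.52, and *Stat3*, *Ptpn1* and *Ptpn11*, with -0.67, -0.45 and -0.21 (edgeR, adjusted p from 0.201 to 0.352). *Ghr*, the growth hormone receptor, was at 651 ± 83.5 CPM in HFD WT and 714 ± 14.0 CPM in HFD Inpp4b-/- (log2 fold change 0.13, adjusted p = 0.613), and *Stat5b* at 48.9 ± 4.32 and 58.5 ± 13.7 CPM (0.26, adjusted p = 0.490). *Socs2*, a STAT5 target that dampens the receptor, ranged from 16.5 to 83.5 CPM in HFD WT and from 15.6 to 60.4 CPM in HFD Inpp4b-/-. *Cish*, another STAT5 target, was at 13.9, 8.38, 1.62 and 24.7 CPM in HFD WT replicates 1 to 4 and 54.6, 40.6, 18.3 and 51.3 CPM in HFD Inpp4b-/- replicates 1 to 4. Its log2 fold change of 1.77 did not pass (edgeR, adjusted p = 0.259).

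Of 21 transcription factors tied to sex-biased liver genes, edgeR called 1, *Foxa2*, against 1.17% of all tested genes. An unadjusted p under 0.05 (edgeR) was reached by 4 of them, and by 2072 of all 14866 genes. DESeq2 called 2, both higher, *Foxa2* and *Foxa1*, against 4.04% of its 17016 genes. *Foxa1* had a log2 fold change of 0.83 (edgeR adjusted p = 0.201, DESeq2 adjusted p = 0.0520). *Foxa2*, a pioneer factor of hepatocytes, rose from 30.8 ± 7.79 CPM in HFD WT to 68.8 ± 14.3 CPM in HFD Inpp4b-/-, with no overlap (log2 fold change 1.16, edgeR adjusted p = 0.0351). Its call was lost without HFD Inpp4b-/- replicate 2 or HFD WT replicate 1 (highest adjusted p = 0.109). *Bcl6*, the repressor of the female pattern, was at 83.7, 80.9, 107 and 19.0 CPM in HFD WT replicates 1 to 4 and 66.7, 22.3, 16.9 and 28.0 CPM in HFD Inpp4b-/- replicates 1 to 4, with a log2 fold change of -1.12 that did not pass (edgeR, adjusted p = 0.386). HFD WT replicate 4, the HFD WT library with the highest *Cyp17a1* level, was thus the lowest of its label in *Bcl6*. *Onecut1*, whose product shares its binding letters with CUX2, was highest in that library, at 54.1 CPM (log2 fold change 0.65, edgeR adjusted p = 0.625). HFD Inpp4b-/- replicate 2 had almost as much *Onecut1*, 52.7 CPM, and 22.3 CPM of *Bcl6*, but the lowest *Cyp17a1* level of all, 0.315 CPM. HFD Inpp4b-/- replicate 3 had the highest *Cyp17a1* level of all, 71.2 CPM, and the lowest *Bcl6* level of all, 16.9 CPM. A relation of *Cyp17a1* to *Bcl6* or *Onecut1* was not tested.

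Other genes of the female pattern were compared in the same fit. Among 18 tested of the 26 other female-biased genes in the table, 10 were higher and 8 lower in HFD Inpp4b-/-. Of these 18, edgeR called 1 (against 1.17% of all tested genes) and DESeq2 called 4, all higher (against 4.04% of its 17016 genes). Below the edgeR filter, DESeq2 also called *Hao2* and *Cyp2b13* higher and *Cyp3a16* lower. Their log2 fold changes were 4.85, 4.11 and -3.25 (DESeq2, adjusted p = 0.00378, 0.00720 and 0.0655), on means of only 13.8, 18.4 and 8.88 counts per library. *Cyp2b9*, a female-specific cytochrome P450, rose from 1.66, 10.3, 1.21 and 0.845 CPM in HFD WT replicates 1 to 4 to 173, 132, 102 and 29.2 CPM in HFD Inpp4b-/- replicates 1 to 4 (log2 fold change 4.93, edgeR adjusted p = 0.0433). This call was lost without HFD Inpp4b-/- replicate 2, HFD Inpp4b-/- replicate 3 or HFD WT replicate 1 (highest adjusted p = 0.121). *Cyp2b10*, of the same family, had the lowest log2 fold change of the list, -4.82, which did not pass (edgeR, adjusted p = 0.264). It was at 86.8 CPM in HFD WT replicate 2 and at 0 to 2.25 CPM in the other 7 libraries. Without HFD WT replicate 2, 5 of 20 tested genes of the list were called, all higher (against 2.26% of all genes in that fit), namely *Cyp2b9*, *Cyp2b13*, *Ntrk2*, *Slc22a27* and *Acot4*, and without any 1 of the other libraries 0 to 2. Because this library held the highest HFD WT level for 20 of the 26 genes, leaving it out lowers their HFD WT means by construction. *Cyp2b9* and *Cyp2b13* have close copies, so reads could be split between them.

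Of 30 male-biased genes, 24 were lower and 6 higher in HFD Inpp4b-/-, with a median log2 fold change of -0.45. edgeR called 7, all lower, where 0.619% of all tested genes were called lower, and DESeq2 called 11, all lower. Among the 6 that were higher, *Mup10* had no overlap between labels, with 356 to 1818 CPM in HFD WT and 1962 to 2838 CPM in HFD Inpp4b-/-, but did not pass (log2 fold change 1.26, edgeR adjusted p = 0.274). *Moxd1*, a monooxygenase-like gene, fell from 2.46 to 31.6 CPM in HFD WT to 0 to 0.161 CPM in HFD Inpp4b-/- (log2 fold change -7.77, edgeR adjusted p = 0.0116). *Cyp4a12b*, a fatty acid hydroxylase, fell from 37.8 ± 18.5 to 4.81 ± 1.21 CPM (-2.97, adjusted p = 0.00787), and *Mup20*, the pheromone darcin, from 2550 ± 1058 to 418 ± 259 CPM (-2.61, adjusted p = 0.0327). The others were *Cyp7b1*, *Serpina1e*, *C6* and *Gstp1*, with log2 fold changes of -0.96, -3.38, -1.14 and -1.50. The number called lower was 8 without HFD WT replicate 2 and 3 to 5 without any 1 of the other libraries. *Moxd1*, *Cyp4a12b* and *Serpina1e* were called in all 8 omissions, *Mup20* in 6 of them, failing without HFD Inpp4b-/- replicate 2 or 3, and *Cyp7b1*, *C6* and *Gstp1* only without HFD WT replicate 2. The *Cyp4a12*, *Mup* and *Serpina1* genes have near-identical copies, and their counts are uncertain for that reason.

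The metabolic partners of the members were listed by pathway. Of 22 tested PPARA target genes, which include *Acot1* and *Acot2*, 20 did not pass in edgeR, which called 1.17% of all tested genes. The median log2 fold change was 0.23. At an unadjusted p under 0.05 (edgeR) there were 8 of the 22, and 2072 of all 14866 genes. DESeq2 called 4 of the list higher and 2 lower, against 4.04% of its 17016 genes. *Cyp4a31*, a fatty acid hydroxylase gene, fell from 15.7 ± 5.78 to 2.71 ± 0.843 CPM (log2 fold change -2.54, edgeR adjusted p = 0.00818). Of 19 tested partners of CYP17A1 and SULT1E1 in steroid synthesis and sulfation, 0 were called by edgeR, with 3 at an unadjusted p under 0.05, and 0 by DESeq2, and the median was -0.15.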

How the data were processed

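Liver RNA-seq of 4 HFD WT and 4 HFD Inpp4b-/- males was used, grouped by the sample labels. Reads (paired-end, 150 bp) had been mapped by HISAT2 to GRCm38 and assigned to genes by HTSeq, and the authors deposited these counts without normalization. The aligner's and counter's versions, the annotation release and the strand setting are not given in the sources used here. A deposited table of normalized values was not used here. Symbols and exon lengths came from GENCODE M21, and start-site windows from RefSeq. The main fit used edgeR 4.0.16 with TMM scaling, filterByExpr and the quasi-likelihood test, without covariates. CPM used the TMM-scaled totals, and correlations used log2 CPM with a prior count of 2. Members below the filter were compared by an exact permutation test. Totals of 25893430 to 36662531 counts set the precision, which covers counting error only. The p-values for differences between labels weigh each difference against the spread between these mice. DESeq2 1.42.0, other scaling, no filter, a stricter threshold, the omission of each library in turn and a replicate block were alternatives. Omissions for the lists and their named genes were added after the results were seen. The code was tested on simulated counts. R 4.3.3, limma 3.58.1 and Python 3.11.15 were used.

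The members, lists and tests were chosen with earlier results of these data known. The genes named are the members, *Inpp4b*, the called genes of the lists and the thioesterase cluster, *Stat5b*, *Bcl6*, *Onecut1*, *Socs2* and *Ghr*, and the 3 genes with the pattern most like each tested member. Others were added after their values were seen. They are the remaining growth hormone pathway genes, *Arl3*, *Cuedc2*, *Cyp2b10*, *Mup10*, *Hao2*, *Cyp3a16*, *Foxa1* and the genes called only without HFD WT replicate 2. *Star* and *Cyp21a1* were added in the same way. The values of 1 called PPARA target gene are not reported here.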

Additional observations from a re-analysis of the deposited data

Results flagged for a closer look

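In 3 of the 10 groups examined, made of 5 genes under 2 labels, 1 library stood farther from the others than Dixon's 95% limit for 4 samples allows. Chance flags about 1 in 20 groups of normally distributed values, or 0.5 of 10, and the same limit was passed by 5.24% of the groups over all 14866 tested genes. The groups are not independent, since 2 of the 3 flags come from 1 library. *Cux2* was at 4.25 CPM in HFD WT replicate 2, against 0.674 CPM in the next library of its label. *Acot3* was at 42.5 CPM in the same library, against 6.93 CPM in the next. *Cyp17a1* was at 27.7 CPM in HFD WT replicate 4, against 2.46 CPM in the next.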

How the results depend on the processing

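The number of called genes was 174 with all libraries, 688 with DESeq2, 71 at an adjusted p under 0.05, 170 with DESeq2's size factors in edgeR and 160 with no expression filter. Leaving out 1 library gave 53 to 345 genes, the fewest without HFD Inpp4b-/- replicate 2 and the most without HFD WT replicate 2. Over the same 8 omissions, the log2 fold change ran from -1.12 to 0.85 for *Cux2*, turning to 0.85 only without HFD WT replicate 2. It ran from 0.22 to 2.06 for *Acot3*, which passed only without that library (edgeR, adjusted p = 0.0133). It ran from 0.64 to 3.75 for *Cyp17a1* and from 0.12 to 0.38 for *Prlr*, neither of which passed in any alternative. The log2 ratio of *Sult1e1* ran from -4.54 to -2.49. It was -3.49 without HFD WT replicate 4, where the exact permutation test reached its smallest p, 0.0286. In that omission all 5 members passed the edgeR filter, and edgeR called 0 of them. The log2 fold change was -3.10 with DESeq2, which called *Sult1e1*. The cause of these changes was not tested.

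A replicate block gave 26 called genes, and log2 fold changes of 1.33 for *Acot3*, -0.048 for *Cux2*, 1.19 for *Cyp17a1* and 0.26 for *Prlr*, with none of the 4 called. Libraries with the same number deviated with correlations of -0.170 to -0.010, so the numbers do not pair the mice. *Sult1e1* was below the filter and had no such fit. Depth limits *Sult1e1* most, with 0 to 5 counts in the libraries labelled HFD Inpp4b-/-.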
